A study of Mus musculus with 16 samples.

Results

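The genes described here are 35 that encode the DNA replication machinery and the enzymes that make its nucleotides. They were chosen by name: a probe set, the group of short probes that measures 1 transcript, belonged to the list if the platform annotation gave it 1 of these symbols. Where a gene had several probe sets, the one with the highest mean over the 16 arrays stood for it, and Rrm2 is also given for each of its 3 probe sets. A probe set was found for 34 of the 35 genes (77 probe sets in all), and Chaf1a was not analysed here. All 34 passed the filter on low values, among 15129 named genes and 22727 features (named genes plus unnamed probe sets) tested.

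The study compared B cells of C57BL/6 mice (B6) with those of B6.Sle2c1 mice, which carry the lupus susceptibility interval Sle2c1 of strain NZM2410 on the B6 background. By the study's title the interval bears on Cdkn2c, an inhibitor of the kinases that start the cell cycle. All mice were 5 months old, and each strain gave B1a cells, the CD5+ B cells of the peritoneal cavity, and splenic B cells (Bs), with 4 arrays in each of the 4 groups. The submitters call the arrays of a group biological replicates; the labels do not say whether a replicate was 1 mouse or a pool. B1a cells spent 2 h in culture with 10% serum to remove adherent macrophages, were depleted with antibodies to Thy1.2 and CD3ε and selected with anti-CD5, and were 80% B220int CD5+. The spleen cells were CD43- cells from a kit, of which over 90% were B220hi, and no culture step is recorded for them. Cell type, organ and preparation therefore cannot be told apart. In both strains the groups are enriched populations and not single cell types, so fewer dividing cells and less RNA per cell cannot be told apart either.

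A cell copies its DNA once per cycle. In G1 the origin recognition complex, Cdc6 and Cdt1 load the ring of Mcm proteins onto origins; in S phase the ring joins Cdc45 and the GINS complex to unwind DNA, and polymerases alpha, delta and epsilon copy the strands. Pcna is the sliding clamp that holds polymerases on DNA, and ribonucleotide reductase, made of Rrm1 and Rrm2, makes the deoxyribonucleotides. Many of these genes are targets of the E2F transcription factors, which the retinoblastoma protein holds back until cyclin D kinases phosphorylate it. Most peritoneal B1a cells and splenic B cells are resting, and a small share of each population is in cycle at any time.

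Promoters are shown for some of the members called in the cell type comparisons below. Rrm2 and Dut were called in both strains, Mcm7 in B6 alone and Pola1 in Sle2c1 alone. Mcm6, whose B1a and Bs values overlapped in both strains, is shown beside them. The promoters of Uhrf1 and Lig1, also called in both strains, are not printed. RefSeq promoter sequences (build GRCm38.p6) were found for 29 of the 35 genes, with 34 start sites. The 250 bases before each start were searched on both strands for 4 E2F words (TTTCCCGC, TTTCGCGC, TTTGCCGC and TTTGGCGC; overlapping matches on opposite strands were each counted), the box CCAAT, the word TTTGAA of the cell cycle homology region and the GC box GGGCGG. An E2F word stood in 7 of the 34 member promoters (20.6%), against 611 of the 32851 promoters in the table (1.86%). These were promoters of Cdc6, Mcm5, Mcm6, Mcm7, Pola1, Rfc3 and Uhrf1. CCAAT stood in 18 of the 34 (52.9%, against 33.8% of all promoters), GGGCGG in 21 (61.8% against 32.7%) and TTTGAA in 2 (5.88% against 16%). The 200 bases before the start are printed 5′ to 3′ on the gene's strand. Capitals mark the E2F words and CCAAT in either orientation, and a match describes letters, not binding. Mcm7 has a second start, and the one farther upstream is shown.
Mcm7 chr5:138171884-138172083: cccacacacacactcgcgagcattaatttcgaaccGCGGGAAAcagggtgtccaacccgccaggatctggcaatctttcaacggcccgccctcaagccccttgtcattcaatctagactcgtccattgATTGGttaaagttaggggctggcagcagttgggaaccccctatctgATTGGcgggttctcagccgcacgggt
Pola1 chrX:93632156-93632355: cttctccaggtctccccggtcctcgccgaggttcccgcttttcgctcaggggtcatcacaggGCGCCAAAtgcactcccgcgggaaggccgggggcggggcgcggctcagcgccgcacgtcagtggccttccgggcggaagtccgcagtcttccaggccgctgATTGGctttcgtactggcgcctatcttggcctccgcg
Mcm6 chr1:128359706-128359905: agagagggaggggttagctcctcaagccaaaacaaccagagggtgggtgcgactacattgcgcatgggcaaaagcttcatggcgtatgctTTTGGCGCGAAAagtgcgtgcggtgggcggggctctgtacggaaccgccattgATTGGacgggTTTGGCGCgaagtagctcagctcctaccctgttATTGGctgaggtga
Rrm2 chr12:24708054-24708253: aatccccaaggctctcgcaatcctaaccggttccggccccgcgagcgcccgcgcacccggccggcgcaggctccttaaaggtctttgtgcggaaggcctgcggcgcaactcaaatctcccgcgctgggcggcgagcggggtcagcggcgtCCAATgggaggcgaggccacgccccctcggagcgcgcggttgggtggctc
Dut chr2:125247315-125247514: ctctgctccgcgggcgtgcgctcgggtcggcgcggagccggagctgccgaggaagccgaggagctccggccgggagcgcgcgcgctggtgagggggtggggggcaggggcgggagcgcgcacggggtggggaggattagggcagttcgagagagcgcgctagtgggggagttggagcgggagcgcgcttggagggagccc
The E2F word of Mcm7 begins 165 bases before its start and that of Pola1 begins 138 bases before. In Mcm6, 2 words overlap on opposite strands at 110 and 106 bases before the start, and another begins 47 bases before it. Rrm2 has a CCAAT box 50 bases before its start and none of the 4 E2F words, and Dut has neither in this window.

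The deposited values are scores of unstated scale and are read here as log-like, so differences are given in score units and never as folds. Each array has a lowest value that 22.8% to 35.6% of its probe sets share. This share was 27.6% to 31.4% on B6 B1a arrays and 31.3% to 35.6% on Sle2c1 B1a arrays. It was 22.8% to 24.4% on B6 Bs arrays and 24.1% to 25.8% on Sle2c1 Bs arrays. Every B1a array thus had a larger share than every Bs array, and the part of this in the differences below was not tested. A floor of 0.495 (the 40th percentile of each array, then the median of these) replaced all lower values. The number of the 34 genes at the floor was 1 to 6 on the B6 B1a arrays, 2 to 10 on the Sle2c1 B1a arrays, 0 to 4 on the B6 Bs arrays and 2 to 5 on the Sle2c1 Bs arrays. Array medians ranged from 0.68 to 1.12. Arrays known from earlier results to lie apart are replicate 4 of Sle2c1 B1a, replicates 1 and 3 of B6 Bs and replicate 3 of Sle2c1 Bs. Without them the members called below numbered 12 and 10 in the cell type comparisons and 0 in both strain comparisons.

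The cell labels were checked against marker genes, as the summed score of each list over its measured genes. The B1a list (6 genes, Cd5 and Bhlhe41 among them) summed to 10.4 to 12.4 on the B1a arrays and 5.52 to 6.16 on the Bs arrays, and Cd5 and Bhlhe41 were at the floor on every Bs array. Follicular and marginal zone genes (3 of 5 measured) summed to 3.51 to 5.46 on B1a and 8.38 to 8.82 on Bs arrays, and general B cell genes (6 of 7) to 17.0 to 17.7 and 18.0 to 19.2. Mast cell genes (6 of 6) summed to 7.79 to 10.9 in B6 B1a, 4.73 to 8.56 in Sle2c1 B1a and 2.97 to 4.47 on Bs arrays, where Mcpt4 and Tpsb2 were at the floor. Macrophage genes (10 of 10) summed to 12.6 to 22.7 in B6 B1a, 8.96 to 9.43 in Sle2c1 B1a, 12.6 to 13.9 in B6 Bs and 10.4 to 12.1 in Sle2c1 Bs; C1qb and C1qc were at the floor in both Sle2c1 groups. T cell genes (6 of 7) summed to 6.39 to 7.70, 3.18 to 6.54, 4.75 to 5.42 and 4.04 to 4.75 in the same order of groups. Germinal centre genes (5 of 6) summed to 6.82 to 7.38, 6.84 to 8.44, 8.88 to 10.7 and 7.38 to 8.62. Plasma cell genes (5 of 5) summed to 13.8 to 15.1, 12.1 to 13.8, 12.8 to 13.9 and 12.7 to 14.0. Neutrophil genes (7 of 8) gave 8.86 to 11.1, 9.74 to 11.0, 10.3 to 12.6 and 8.78 to 12.5, and erythroid genes, of which only 3 of 8 were measured, gave 1.84 to 2.60, 1.85 to 2.96, 2.48 to 4.39 and 1.74 to 1.98. The part of these other cells in the results below was not tested.

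Some replication genes, but not most, were called lower in B1a than in splenic B cells, in both strains. In B6, 8 of the 34 genes passed the test and all 8 were lower in B1a: Rrm2, Dut, Prim1, Uhrf1, Lig1, Mcm7, Rfc2 and Rfc4. In Sle2c1, 10 passed, all lower in B1a: Pole2, Rrm2, Pola1, Pold1, Uhrf1, Dut, Lig1, Rfc2, Prim2 and Rpa2. The test was limma over all 22727 features, with Benjamini-Hochberg adjustment and a threshold of 0.05. The share of members called lower was 23.5% in B6 and 29.4% in Sle2c1, where 12.1% and 14.4% of all features were. By these probe sets no member was called higher, where 8.8% of all features were in B6 and 10.7% in Sle2c1. The direction of Rrm2 differed among its probe sets (given below); without Rrm2, 7 of 33 genes (21.2%) were called lower in B6 and 9 of 33 (27.3%) in Sle2c1. With the mean of all probe sets of a gene, 6 genes were lower and 1, Rrm2, higher in B6, and 7 lower and 1, again Rrm2, higher in Sle2c1. That setting ended the calls of Mcm7 and Uhrf1 in B6 and of Uhrf1, Pola1 and Prim2 in Sle2c1, and added Rrm1 in B6 and Rfc3 in Sle2c1. The median difference over the 34 genes was -0.19 in B6 and -0.12 in Sle2c1, beside -0.05 and -0.04 over all features. Below 0 were 26 of 34 differences in B6 (76.5%, against 58.3% of all features) and 23 of 34 in Sle2c1 (67.6%, against 55.5%). The 5 genes called lower in both strains by the probe sets used were Rrm2, Dut, Uhrf1, Lig1 and Rfc2, which is 62.5% of the B6 list and 50% of the Sle2c1 list. Over all features, the calls lower in both strains made up 67.9% and 56.8% of the 2 lists. Rescaling the arrays gave fewer calls. In B6, quantile normalization kept 5 of the 8 (without Lig1, Rfc2 and Rfc4), and centring each array on its median kept 3 (Rrm2, Dut and Prim1). In Sle2c1, quantile normalization kept 7 of the 10 (without Lig1, Prim2 and Rpa2), and median centring kept 6 (without Rfc2 as well) and added Tyms. Over all features the number called lower changed less. In B6 it was 2740 as deposited, 2598 with quantile normalization and 2689 with median centring. In Sle2c1 it was 3274, 3021 and 3230. The excess of members called lower over all features, above all in B6, thus rests on the scaling. Across the 34 genes the differences in the 2 strains, which share no array, correlated at r = 0.755 (0.814 over all features); genes are not independent replicates.

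**Figure D1:**
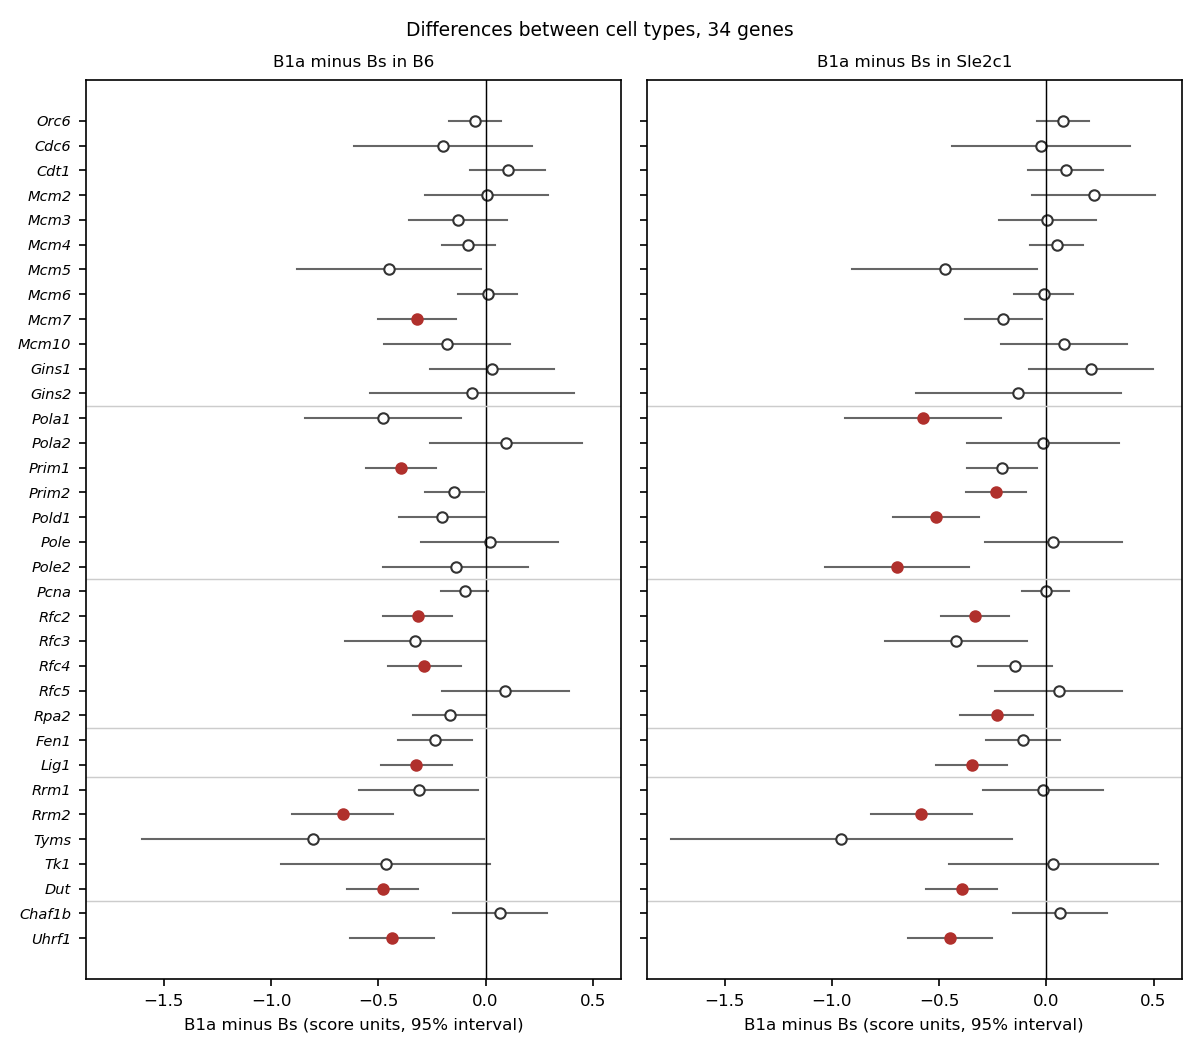
Difference in score, B1a minus Bs, for 34 genes in B6 (left) and Sle2c1 (right), with 95% intervals from limma; filled points passed the test and grey lines divide the roles. Filled points number 8 and 10 and all lie left of 0, and only Mcm7 of the 12 licensing and helicase genes at the top is filled, in B6 alone.

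Of the 12 origin licensing and helicase genes (Orc6, Cdc6, Cdt1, Mcm2, Mcm3, Mcm4, Mcm5, Mcm6, Mcm7, Mcm10, Gins1 and Gins2), 1 (8.33%) was called lower in B1a in B6 and 0 in Sle2c1, where 12.1% and 14.4% of all features were. The B6 share is near that of all features. In each strain 2 (Mcm5 and Mcm7) had an unadjusted p under 0.05, both lower, as 21.2% of all features were in B6 and 22.6% in Sle2c1. Their median difference was -0.07 in B6 and 0.03 in Sle2c1. Mcm7, a subunit of the Mcm ring, scored 1.98, 1.96, 1.89 and 1.89 on the B6 B1a arrays and 2.23, 2.29, 2.23 and 2.25 on the B6 Bs arrays. All 4 B1a arrays lay below all 4 Bs arrays, and the difference of -0.32 (SE 0.08) passed the test (limma adjusted p = 0.0156; 0.0696 with median centring and 0.0664 with the mean of its probe sets). In Sle2c1 Mcm7 scored 2.00, 1.91, 1.66 and 2.10 on B1a and 2.20, 2.11, 2.20 and 1.96 on Bs arrays, groups that overlapped (-0.20, limma adjusted p = 0.0971). Mcm5, another ring subunit, averaged 1.63 ± 0.143 (SD, n = 4) in B6 B1a and 2.08 ± 0.0854 in B6 Bs without overlap, a difference of -0.45 that did not pass (limma adjusted p = 0.128). The largest difference above 0 in Sle2c1 was that of Mcm2, at 0.22, and it was not called. Mcm4 averaged 3.41, 3.46, 3.49 and 3.42 in B6 B1a, Sle2c1 B1a, B6 Bs and Sle2c1 Bs by the probe set used, and its probe set 1416214_at was called lower in B6 B1a by -0.21 (limma adjusted p = 0.011).

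Among the polymerases and primase, 1 of 7 (14.3%) was called lower in B6, a share near the 12.1% of all features, and 4 of 7 (57.1%) in Sle2c1, beside 14.4%. Prim1, the catalytic primase subunit, scored 1.93, 1.90, 1.99 and 1.96 on B6 B1a arrays against 2.30, 2.41, 2.38 and 2.27 on B6 Bs arrays. The groups did not overlap, and the difference was -0.40 (SE 0.08, limma adjusted p = 0.00218). In Sle2c1 its groups overlapped, at 1.92 to 2.15 and 2.02 to 2.36 (-0.21, limma adjusted p = 0.0616). Pold1, the catalytic subunit of polymerase delta, scored 1.74, 1.69, 1.59 and 1.77 on Sle2c1 B1a arrays and 2.46, 2.09, 2.25 and 2.05 on Sle2c1 Bs arrays. These groups lay apart, with a difference of -0.52 (SE 0.09, limma adjusted p = 0.00104), and the other Pold1 probe set was also called lower, by -0.60 (limma adjusted p = 0.0126). In B6 the Pold1 difference was -0.20 with overlap (limma adjusted p = 0.141). Pole2, a small subunit of polymerase epsilon, scored 1.30, 0.495, 0.495 and 0.83 on Sle2c1 B1a arrays, 2 of them at the floor, against 1.57, 1.18, 1.66 and 1.5 on Bs arrays. The highest B1a array exceeded the lowest Bs array, and the difference of -0.70 (SE 0.16) passed (limma adjusted p = 0.00471) with the floor at the 40th percentile; it did not without a floor (-2.64, limma adjusted p = 0.11) or with one at the 60th percentile (-0.255, limma adjusted p = 0.0603). Pola1, the catalytic subunit of polymerase alpha, scored 1.22, 1.21, 0.495 and 1.60 on Sle2c1 B1a arrays and 1.77, 1.77, 1.69 and 1.60 on Bs arrays. The groups met at 1.60, and the difference was -0.58 (limma adjusted p = 0.0233; 0.0551 without Sle2c1 Bs replicate 1 and 0.0585 without replicate 2). It was -0.258 with the mean of its probe sets (limma adjusted p = 0.181), and the call also ended on only the arrays compared (0.0975). In B6 Pola1 differed by -0.48 without overlap and did not pass (limma adjusted p = 0.0593). Prim2, the large primase subunit, averaged 1.70 ± 0.0985 (SD, n = 4) in Sle2c1 B1a and 1.93 ± 0.0294 in Sle2c1 Bs without overlap (-0.23, SE 0.06, limma adjusted p = 0.016). This call ended with quantile normalization (limma adjusted p = 0.226), with median centring (0.183) and with the mean of its probe sets (-0.133, limma adjusted p = 0.161). Pole and Pola2, the other members, gave differences of 0.02 and 0.10 in B6 and 0.03 and -0.01 in Sle2c1.

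The clamp itself did not pass while part of its loader did. Pcna averaged 3.08 ± 0.0327 (SD, n = 4) in B6 B1a and 3.18 ± 0.0624 in B6 Bs, and 3.06 ± 0.035 and 3.06 ± 0.058 in the Sle2c1 groups. Its differences were -0.10 in B6 (95% interval -0.21 to 0.01, limma adjusted p = 0.192) and -0.0025 in Sle2c1 (-0.11 to 0.11, limma adjusted p = 0.983), with overlap in both. Rfc2, a subunit of the clamp loader replication factor C, scored 2.29, 2.25, 2.25 and 2.18 on B6 B1a and 2.59, 2.55, 2.39 and 2.71 on B6 Bs arrays. In Sle2c1 it scored 2.36, 2.23, 2.16 and 2.15 on B1a and 2.53, 2.56, 2.46 and 2.68 on Bs arrays. Neither pair of groups overlapped, with differences of -0.32 (limma adjusted p = 0.00797) and -0.33 (limma adjusted p = 0.00473). With median centring neither passed (0.17 and 0.0822), and with quantile normalization the B6 difference did not (0.053). All 3 Rfc2 probe sets were called lower in Sle2c1 and 2 in B6. Rfc4, another loader subunit, averaged 1.97 ± 0.033 (SD, n = 4) in B6 B1a and 2.25 ± 0.0602 in B6 Bs (-0.28, limma adjusted p = 0.0223); this call ended without B6 B1a replicate 2 (0.0506) or 3 (0.0616) or B6 Bs replicate 2 (0.0522) or 4 (0.0589). Rpa2, of the single-strand binding protein RPA, was lower in Sle2c1 B1a by -0.23 with overlap (limma adjusted p = 0.045); leaving out any 1 of 11 arrays ended the call (adjusted p from 0.05 to 0.119). A further Rpa2 probe set was lower there by -0.61 (limma adjusted p = 0.00664). Rfc3 and Rfc5 were not called in either strain.

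Of the genes that join the lagging strand, Lig1 passed in both strains and Fen1 in neither. Lig1, the ligase that seals Okazaki fragments, scored 1.45, 1.64, 1.65 and 1.56 on B6 B1a arrays and 1.99, 1.99, 1.76 and 1.85 on B6 Bs arrays. On Sle2c1 arrays it scored 1.47, 1.39, 1.23 and 1.25 in B1a and 1.79, 1.64, 1.70 and 1.60 in Bs. The B1a arrays of a strain lay below its Bs arrays in both, by -0.32 (limma adjusted p = 0.0091) and -0.35 (limma adjusted p = 0.0045). Both Lig1 calls ended under either rescaling (adjusted p from 0.0572 to 0.192). Fen1, the flap nuclease, differed by -0.23 in B6 (limma adjusted p = 0.0523) and -0.11 in Sle2c1 (limma adjusted p = 0.348).

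Nucleotide synthesis genes had the lowest median difference of the roles in B6, -0.48 over 5 genes. In each strain 2 of them (Rrm2 and Dut, 40%) were called lower, beside 12.1% of all features in B6 and 14.4% in Sle2c1. The direction of Rrm2 differed among its probe sets (given below), so of these calls only that of Dut does not rest on the choice of probe set. Dut, which breaks down dUTP and so keeps uracil out of DNA, scored 2.15, 2.23, 2.14 and 2.03 on B6 B1a arrays and 2.70, 2.60, 2.52 and 2.65 on B6 Bs arrays. In Sle2c1 it scored 2.24, 1.95, 1.91 and 1.94 on B1a and 2.37, 2.38, 2.37 and 2.5 on Bs arrays. Every B1a array lay below every Bs array of its strain. The differences were -0.48 (SE 0.08, limma adjusted p = 0.000485) in B6 and -0.40 (SE 0.08, limma adjusted p = 0.00172) in Sle2c1, and both calls held under every alternative run. Rrm1, the large reductase subunit, averaged 1.54 ± 0.228 (SD, n = 4) in B6 B1a and 1.86 ± 0.0984 in B6 Bs (-0.31, limma adjusted p = 0.102), and 1.48 ± 0.208 and 1.49 ± 0.191 in Sle2c1. Its lower-scoring probe set 1448127_at was called lower in B1a in both strains, by -0.75 (limma adjusted p = 0.021 in B6 and 0.017 in Sle2c1). Tyms, thymidylate synthase, had the difference farthest below 0 in both strains, -0.80 and -0.95, but its arrays ranged from 0.495 to 2.38 within B6 Bs alone and it was not called (limma adjusted p = 0.142 and 0.0749). Tk1, thymidine kinase, averaged 0.921 ± 0.302 (SD, n = 4) and 1.39 ± 0.402 in B6 B1a and Bs, and 1.28 ± 0.337 and 1.25 ± 0.315 in Sle2c1, and was not called.

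Uhrf1, which recruits the maintenance DNA methyltransferase to new DNA, was the only chromatin gene called. It scored 2.92, 2.99, 2.81 and 2.68 on B6 B1a arrays and 3.29, 3.40, 3.18 and 3.27 on B6 Bs arrays. On Sle2c1 arrays it scored 2.93, 2.58, 2.60 and 2.52 in B1a and 3.17, 3.12, 3.06 and 3.07 in Bs. No B1a array reached a Bs array of its strain, with differences of -0.44 (limma adjusted p = 0.00379) and -0.45 (limma adjusted p = 0.00244). With the mean of its probe sets neither passed, at -0.347 (limma adjusted p = 0.0654) and -0.229 (limma adjusted p = 0.199), nor did the B6 difference with median centring (0.0536). Chaf1b, of the chromatin assembly factor, was near the floor in all 4 groups (means 0.495 to 0.616).

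**Figure D2:**
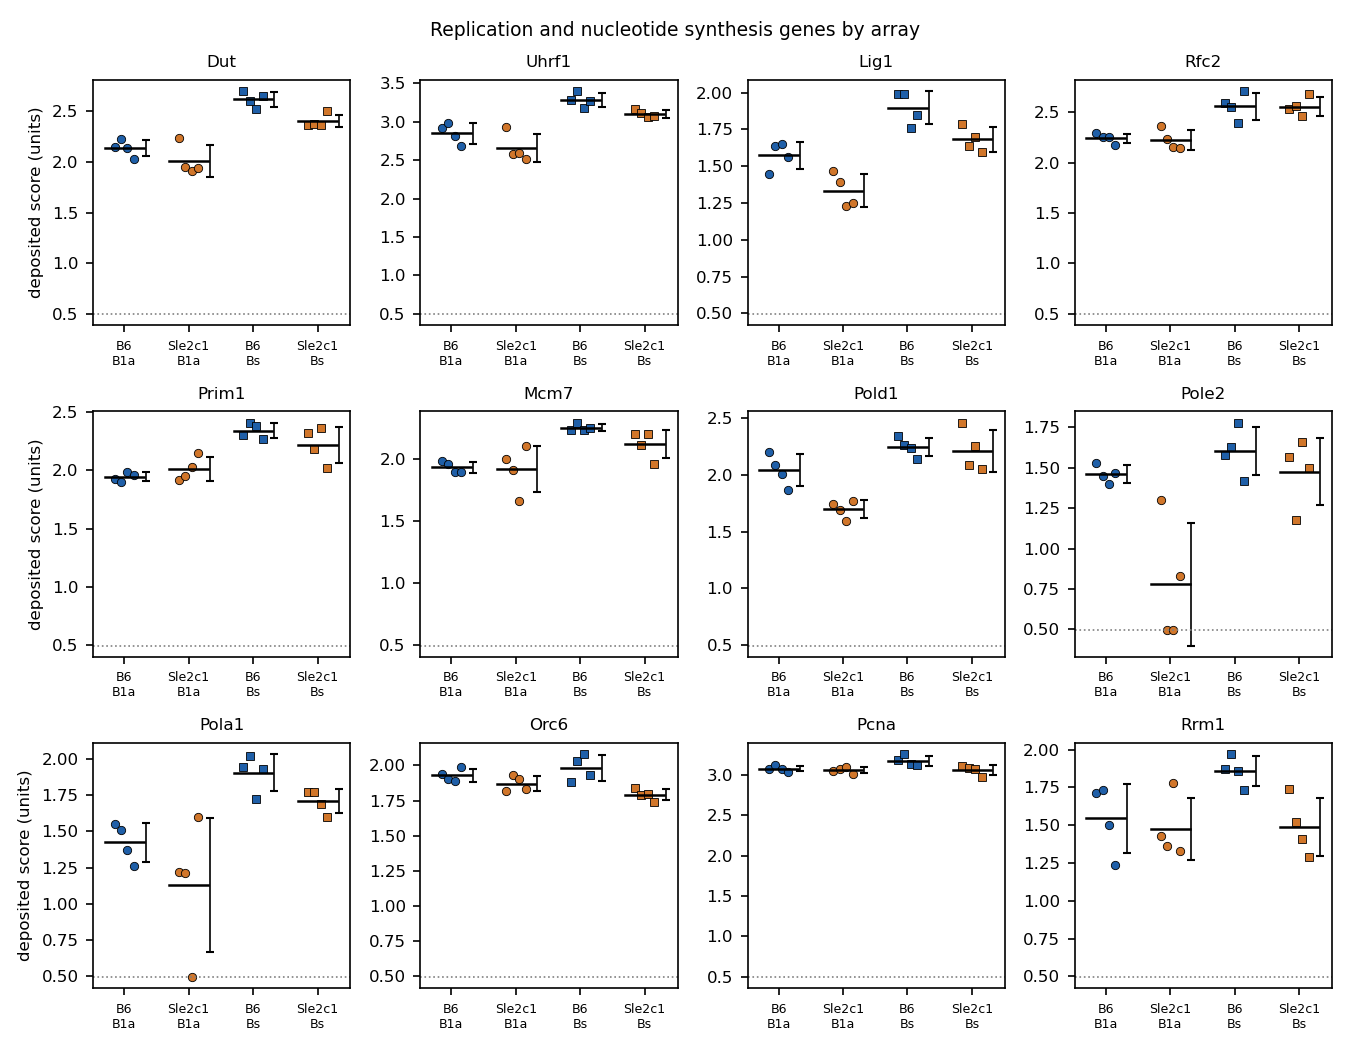
Score of 12 genes on each of the 16 arrays; points are arrays, horizontal lines are means, bars are ± 1 SD (n = 4), and the dotted line is the floor of 0.495; each panel has its own axis. Dut, Uhrf1, Lig1 and Rfc2 show B1a arrays below Bs arrays in both strains, and 2 Sle2c1 B1a arrays of Pole2 lie on the floor.

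The 3 probe sets of Rrm2, the small subunit whose level limits ribonucleotide reductase, went in opposite directions between the cell types. Probe set 1434437_x_at, which stood for the gene, scored 3.00, 3.08, 2.98 and 2.72 on B6 B1a arrays and 3.65, 3.75, 3.45 and 3.60 on B6 Bs arrays. Its Sle2c1 arrays scored 3.04, 2.56, 2.51 and 2.74 in B1a and 3.31, 3.33, 3.27 and 3.27 in Bs. By this probe set Rrm2 was lower in B1a, without overlap, by -0.67 in B6 (limma adjusted p = 0.000633) and -0.58 in Sle2c1 (limma adjusted p = 0.0014). Probe set 1448226_at scored 2.73, 2.81, 2.72 and 2.38 on B6 B1a arrays and 1.34, 1.27, 0.495 and 1.13 on B6 Bs arrays. In Sle2c1 the same probe set scored 2.71, 2.35, 2.23 and 2.46 in B1a and 0.495, 0.56, 0.495 and 0.94 in Bs. Here every B1a array lay above every Bs array, by 1.60 in B6 (limma adjusted p = 1.44e-05) and 1.82 in Sle2c1 (limma adjusted p = 3.16e-06). Probe set 1416120_at scored 2.08, 2.09, 2.18 and 2.16 on B6 B1a arrays and 0.96, 0.94, 0.495 and 0.69 on B6 Bs arrays. Its Sle2c1 scores were 2.16, 2.22, 2.20 and 2.01 in B1a and 0.495, 0.56, 0.495 and 0.495 in Bs. It too was higher in B1a, by 1.36 in B6 (limma adjusted p = 7.94e-08) and 1.64 in Sle2c1 (limma adjusted p = 9.12e-09). For each probe set and strain the exact two-sided permutation p was 0.0286, the smallest that 4 arrays against 4 allow. These fits tested each of 35032 probe sets alone, of which 9.21% were called higher and 10.7% lower in B6, and 11.1% and 13.7% in Sle2c1.

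The mean over the 3 Rrm2 probe sets gave a difference above 0 in both strains, 0.763 in B6 (limma adjusted p = 0.000153) and 0.956 in Sle2c1 (limma adjusted p = 1.44e-05), so the direction for Rrm2 between cell types rests on the choice of probe set. Without a floor the differences of the 2 probe sets that were higher in B1a stayed above 0 and no longer passed. Of the 25 members with several tested probe sets, Rrm2 alone had calls in both directions; among all 6883 such genes, 1.67% did in B6 and 3.36% in Sle2c1. The ending _x_at marks a set with probes that may also match other transcripts, and whether 1434437_x_at does so was not tested. Sets with this ending also stood for Mcm4, Mcm5, Mcm6, Mcm7, Fen1 and Pold1, and for these it was not tested either. For the 25 members, 28 of 37 further probe sets had the sign of the one used in B6 and 20 of 37 in Sle2c1. On the B6 Bs arrays, replicate 3 was the lowest on all 3 Rrm2 probe sets.

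**Figure D3:**
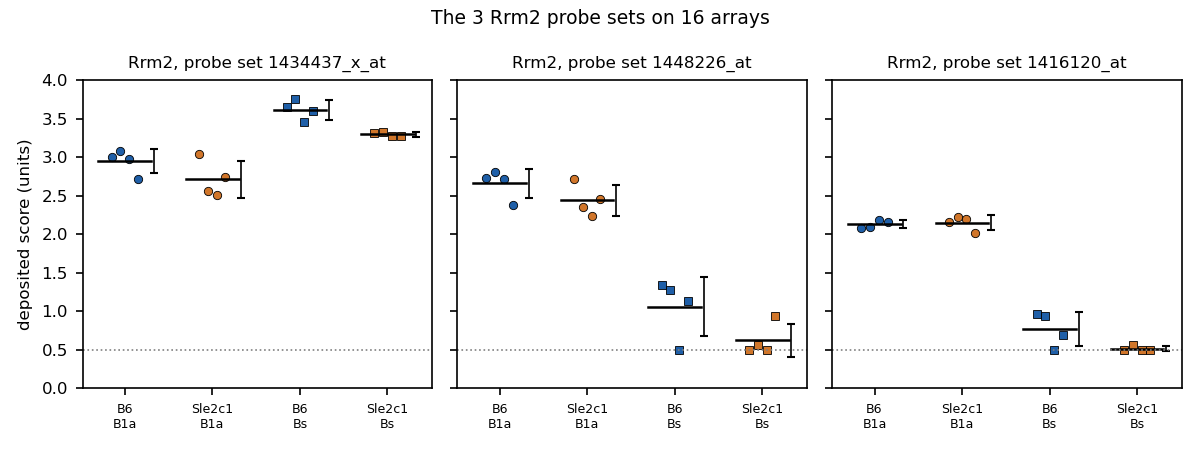
Score of the 3 Rrm2 probe sets on each of 16 arrays; points are arrays, lines are means, bars are ± 1 SD (n = 4) and the dotted line is the floor of 0.495. The left probe set is lower in B1a than in Bs and the others are higher, with no overlap in either strain.

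In B1a cells, 1 of the 34 genes differed between the strains: Pole2 was lower in Sle2c1. It scored 1.53, 1.45, 1.40 and 1.47 on B6 arrays and 1.30, 0.495, 0.495 and 0.83 on Sle2c1 arrays. The groups did not overlap, but the Sle2c1 arrays ranged widely and 2 were at the floor. The difference was -0.68 (SE 0.16, limma adjusted p = 0.029), with 2.94% of the members called lower beside 1.36% of all features. The call ended without any 1 of 6 arrays: B6 B1a replicates 1 (limma adjusted p = 0.0795), 2 (0.0695), 3 (0.0599) and 4 (0.0535) and Sle2c1 B1a replicates 2 (0.0792) and 3 (0.0742). The difference was -0.234 with a floor at the 60th percentile (limma adjusted p = 0.296) and -0.301 with the mean of its probe sets (limma adjusted p = 0.0563), and without a floor it was -2.63 (limma adjusted p = 0.277). Pold1 scored 2.20, 2.09, 2.01 and 1.87 on B6 B1a arrays and 1.74, 1.69, 1.59 and 1.77 on Sle2c1 B1a arrays. The 4 Sle2c1 arrays lay below the 4 B6 arrays, by -0.34 (SE 0.09), and the test was not passed (limma adjusted p = 0.0634). With 1 array left out the limma adjusted p was 0.0374 to 0.181, above 0.05 in 14 of 16 runs. In 13 other settings it was 0.0338 to 0.119, and 4 of these passed. The replicate number as a block among the Bs arrays was 1 of them (0.0422). Lig1 differed by -0.24 (limma adjusted p = 0.12) and Prim2 by -0.19 (limma adjusted p = 0.141), the latter without overlap.

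Polymerase and primase genes held the 3 members whose strain groups did not overlap in B1a (Pole2, Pold1 and Prim2). These were 8.82% of the 34 members, and over all features 4.12% were lower without overlap. Of the 7 genes of this role, 6 were below 0, 5 had an unadjusted p under 0.05 (among all features 7.58% did so with a lower value), and the median was -0.34. Over all 34 members, 6 had such a p. These values rest on 1 probe set per gene. The further probe sets of Pola1, Pola2 and Prim1 had the opposite sign, that of Pold1 the same, and 1 of 2 for Prim2. Over the 25 members with further probe sets, 21 of 37 had the sign of the one used. On the Sle2c1 B1a arrays, 3 values of Pola2, 2 of Pole and 2 of Pole2 were at the floor. The 12 licensing genes had a median of -0.05 and 0 at an unadjusted p under 0.05. Over all 34 genes the median was -0.07 and 28 differences (82.4%) were below 0, against a median of 0.03 and 43.4% over all features; with each array centred on its median these medians were -0.20 and -0.07. Pcna did not differ beyond its spread (-0.02, 95% interval -0.13 to 0.09, limma adjusted p = 0.891). The Rrm2 probe sets gave -0.23, -0.22 and 0.02 in the order used above, with limma adjusted p of 0.298, 0.554 and 0.935 and exact permutation p of 0.2, 0.143 and 0.8. Macrophage genes were lower in Sle2c1 than in B6 B1a cells, 5 of 10 past the test, and their part in the Pole2 difference was not tested.

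In splenic B cells no member was called between the strains, yet nearly all differences were below 0. Of 34 genes, 32 (94.1%) were lower in Sle2c1, against 41.7% of all features, and the median was -0.141 beside 0.015 over all features. Limma called 0 of 34 at an adjusted p under 0.05, where 0.0308% of all features were called lower, and 8 of 34 (Orc6, Rrm2, Rrm1, Lig1, Dut, Cdc6, Pole and Pcna) had an unadjusted p under 0.05, all lower, where 1.5% of all features did. In 7 genes (Orc6, Rrm2, Dut, Pcna, Uhrf1, Mcm7 and Mcm5) the 4 Sle2c1 arrays lay below the 4 B6 arrays, 20.6% of the members beside 1.15% of all features. Tyms and Rfc3 were the 2 genes above 0, at 0.41 and 0.10. These counts, like those in B1a above, come from the same few arrays, and genes are not independent replicates. On the Sle2c1 Bs arrays Mcm10 and Chaf1b were at the floor on all 4 and Cdc6 on 3. The mean over the 34 genes was 1.93 to 2.09 on B6 Bs arrays and 1.82 to 1.92 on Sle2c1 Bs arrays, ranges that did not overlap.

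Orc6, a subunit of the origin recognition complex, scored 1.88, 2.03, 2.08 and 1.93 on B6 Bs arrays and 1.84, 1.79, 1.80 and 1.74 on Sle2c1 Bs arrays. Its difference of -0.19 (SE 0.06) had the smallest p of the members and did not pass (limma adjusted p = 0.678). Rrm1 scored 1.87, 1.97, 1.86 and 1.73 on B6 and 1.74, 1.52, 1.41 and 1.29 on Sle2c1 Bs arrays. The groups overlapped by 1 array, and the difference was -0.37 (SE 0.13, limma adjusted p = 1). Lig1 differed by -0.21 (SE 0.08, limma adjusted p = 1) with overlap. Pcna scored 3.19, 3.26, 3.14 and 3.12 on B6 and 3.11, 3.09, 3.08 and 2.98 on Sle2c1 Bs arrays, groups that lay apart by little, and differed by -0.11 (SE 0.05, limma adjusted p = 1). The Rrm2 probe sets all lay below 0 here, at -0.32, -0.44 and -0.26, none called (limma adjusted p = 1 for each), with exact permutation p of 0.0286, 0.143 and 0.143.

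Same-numbered Bs arrays of the 2 strains deviated together to unlike degrees (r = 0.109 to 0.617), and the labels do not pair them. The Bs comparison was also fitted with the replicate number as a block. This left 0 members called, and 9 had an unadjusted p under 0.05 in place of 8. In 15 of the 34 genes (44.1%) Sle2c1 was lower in all 4 same-numbered pairs, against 4.66% of all features. In 1 gene, Tyms, it was higher in all 4 (2.94% against 7.29%). Here too the genes are not independent replicates. Macrophage, germinal centre and erythroid marker sums were also lower on the Sle2c1 than on the B6 Bs arrays, without overlap, and their part in these differences was not tested.

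**Figure D4:**
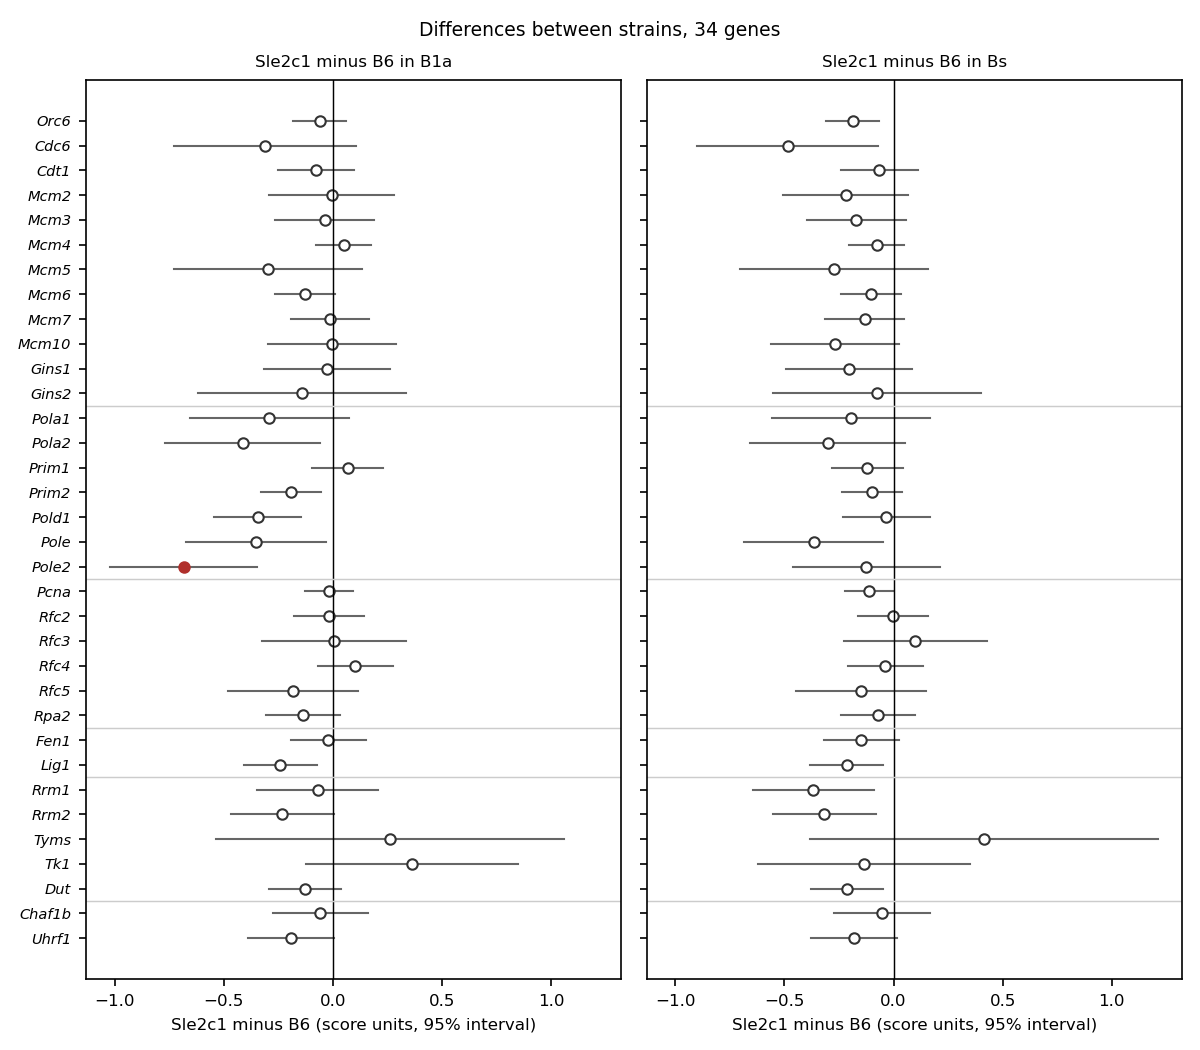
Difference in score, Sle2c1 minus B6, for 34 genes in B1a (left) and Bs (right), with 95% intervals from limma; the filled point, Pole2 in B1a, passed the test and grey lines divide the roles. Differences below 0 number 28 in B1a and 32 in Bs.

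No member passed the test of whether the strain difference itself differed between B1a and Bs (0 of 34, with 0.414% of all features called). Positive values mean that Sle2c1 stood higher relative to B6 in B1a than in Bs, and 17 of 34 were below 0. The members with the smallest p were Pole2 (-0.56, limma adjusted p = 0.593) and Pold1 (-0.31, limma adjusted p = 0.633), the 2 with an unadjusted p under 0.05, where 3.9% of all features had such a p with a lower value. Prim1 gave 0.19 (limma adjusted p = 0.812) and Rrm1 0.30 (limma adjusted p = 0.845). For Pcna the value was 0.10 (95% interval -0.06 to 0.25, limma adjusted p = 0.913). For Rrm2 it was 0.09, 0.21 and 0.28 in the 3 probe sets (limma adjusted p = 0.974, 0.948 and 0.633). The Pole2 difference in B1a is thus not shown to differ from that in Bs (-0.13).

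Other genes of the pathway were taken from a list of 55, of which 50 were measured. In B1a against Bs, 18 of 50 were called lower and 0 higher in B6, and 16 lower and 2 higher in Sle2c1. The shares lower were 36% and 32%, beside 12.1% and 14.4% of all features. In B6 the smallest adjusted p belonged to Dna2, a nuclease that trims long flaps (-1.59, limma adjusted p = 1.37e-05), Rfc1, the large clamp loader subunit (-0.45, 5.05e-05), the origin-firing kinase Cdc7 (-0.47, 0.000315) and the chromatin remodeller Hells (-0.50, 0.00042). In Sle2c1 they were Rfc1 (-0.55, limma adjusted p = 5.71e-06), Gmnn, which blocks Cdt1 (-1.0, 1.78e-05), Cdc7 (-0.60, 2.58e-05) and the histone chaperone Asf1b (-0.72, 0.000169). Between the strains in B1a 1 of 50 was called: Brca1, a DNA repair gene, was higher in Sle2c1 by 0.60 (limma adjusted p = 0.00712). That is 2% of the list, near the 1.86% of all features called higher. In Bs 0 of 50 were called, 34 (68.0%) were below 0 and none had an unadjusted p under 0.05.

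Mitosis genes, which act later in the cycle, were compared by count. In B1a against Bs, 15 of 19 were called lower in B6 and 13 of 19 in Sle2c1, with median differences of -0.66 and -0.54. The shares were 78.9% and 68.4%, beside 12.1% and 14.4% of all features. Between the strains 0 of 19 were called in either cell type, with 3 at an unadjusted p under 0.05 in B1a and 8 in Bs. Such a p, in either direction, was found for 3873 of all 22727 features in B1a and 776 in Bs. The mitosis medians were -0.105 in B1a and -0.29 in Bs. The mean mitosis score was 1.69 to 1.85 on the B6 Bs arrays and 1.41 to 1.49 on the Sle2c1 Bs arrays, without overlap, and 0.863 to 1.24 over the B1a arrays. On B1a arrays the mean over the 34 replication genes was 1.66 to 1.90 in B6 and 1.57 to 1.82 in Sle2c1, ranges that overlapped. Within the B1a groups, B6 replicate 4 and Sle2c1 replicate 3 were the lowest on the replication mean and on the mitosis mean. These arrays were also the lowest of their groups on the B1a, germinal centre, plasma, T and mast cell means. On the neutrophil mean they were the highest. They had the most members at the floor in their groups, 6 and 10.

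**Figure D5:**
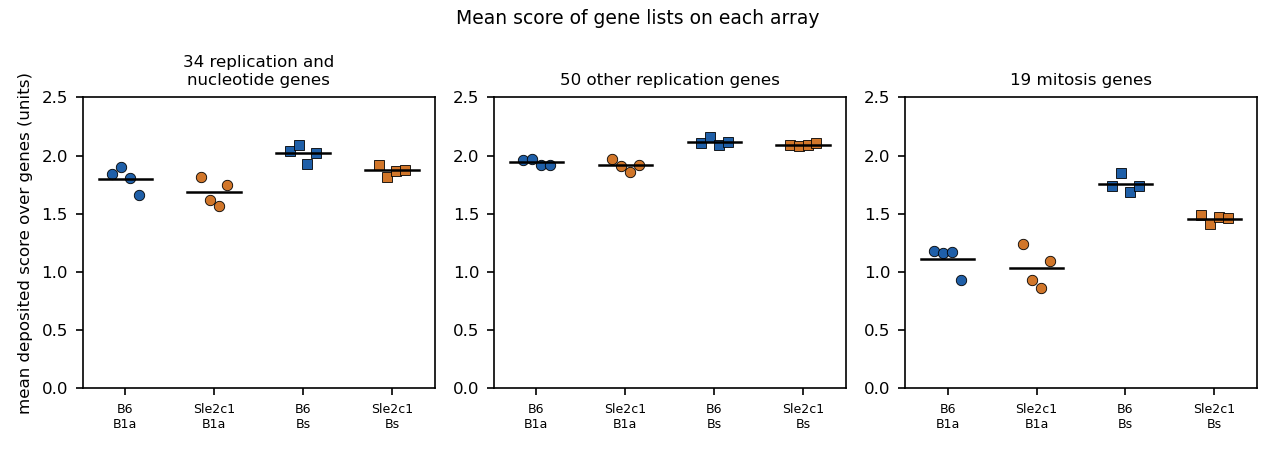
Mean score over each gene list on each array; points are arrays (circles B1a, squares Bs; blue B6, orange Sle2c1) and lines are group means. On the left, the B6 Bs arrays lie at 1.93 to 2.09 and the Sle2c1 Bs arrays at 1.82 to 1.92; on the right, the Bs arrays lie above all B1a arrays.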

How the data were processed

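RNA from 16 samples in 4 groups of 4 was amplified, labelled and hybridised to 16 Affymetrix-type arrays, 1 per sample, per the labels' protocols. The values deposited by the authors are 1 score per probe set and array. The software, log base and centring behind the score are not given in the sources used here, so no fold was computed. Scores of different probe sets were ranked, summed or averaged only within a gene or a list, and were not read as relative amounts. The number of arrays limits the precision. Of 45101 probe sets, 34958 carry 1 gene symbol in the platform annotation, 932 several and 9211 none, and 99.4% of the first were matched to RefSeq by Entrez ID. Control probe sets (64) were left out. Values were raised to a floor of 0.495. A probe set was kept if it exceeded the 40th percentile of the array on 4 or more arrays (35032, and 71 of the members' 77).

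Group means of all 16 arrays were fitted with limma 3.58.1 in R 4.3.3 (lmFit, contrasts.fit and eBayes, two-sided, Benjamini-Hochberg over all features). Rrm2 probe sets also had an exact permutation test of 4 against 4 arrays. The fit was also run on simulated arrays that varied independently, with known differences placed only in features well above the floor. That run therefore does not cover genes near the floor or arrays that deviate together. Given with values are, per comparison, up to 10 members past the threshold with the smallest adjusted p, or the 4 with the smallest p where fewer than 4 pass, and Rrm2 and Pcna throughout; a gene named beyond this rule was chosen after its values were seen. The members and lists were chosen with earlier results of these data known. Alternatives covered the floor, the filter, scaling, the probe set rule, the model and each array left out.

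Arrays of a group correlated at 0.784 to 0.971 and none were identical. Deviations of same-numbered arrays from their group means correlated at 0.109 to 0.617 between the Bs groups of the strains, where each of the 4 pairs exceeded 0.1, and not in every pair for any other 2 groups. By another measure the Bs groups did not stand out. The array of the same number was the best match for 2 of the 4 numbers, as it was between the B1a groups of the strains. The labels do not say that a number pairs samples.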

Additional observations from a re-analysis of the deposited data

Results flagged for a closer look

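Among 124 combinations of a gene or Rrm2 probe set with a group that could be tested, 5 held 1 array far from the other 3 (its gap to the nearest, as a share of the group's range, was beyond Dixon's 95% critical value); chance gives about 1 in 20. Mcm5 was at the floor, 0.495, on Sle2c1 B1a replicate 3, where the other arrays scored 1.54 to 1.68. Gins1 scored 1.53 on Sle2c1 Bs replicate 1, above 1.11 to 1.16 on the others. Prim2 scored 1.87 on B6 Bs replicate 3, below 2.07 to 2.10. Dut scored 2.24 on Sle2c1 B1a replicate 1, above 1.91 to 1.95, and 2.5 on Sle2c1 Bs replicate 4, above 2.37 to 2.38. A further 20 combinations were not tested because their arrays were at the floor or equal.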

How the results depend on the processing

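Signal near the floor limits Pole2, Pola1, Pole, Tyms, Cdc6 and the Bs values of 2 Rrm2 probe sets. Dut, Prim1 in B6 and Pold1 in Sle2c1 kept their cell type calls under every alternative run. Members called in B1a against Bs numbered 7 to 10 in B6 and 8 to 12 in Sle2c1 when 1 array was left out. In B6 they numbered 5 with quantile normalization and 3 with median centring. Of all features, these 2 settings called 2598 and 2689 lower in B6, beside 2740 as deposited. The strain comparison in B1a, with 1 call, gave 0 without a floor, with a floor at the 60th percentile, with the mean of all probe sets, with only the arrays compared or without the 4 arrays that lie apart; it gave 2 with median centring or with limma's trend and robust options, and 0 to 2 with 1 array left out. The cause was not tested. The Bs strain comparison and the test of the difference gave 0 in every setting; the latter could not be fitted on only the arrays compared.

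With the replicate block over all groups the counts were 9 (B6) and 9 (Sle2c1) between cell types, 2 and 0 between strains in B1a and Bs and 0 for their difference. With the block within the Bs arrays, added after seeing the data, they were 9, 12, 2, 0 and 0. All 6 cell type calls of the Rrm2 probe sets stayed under both blocks and with any array left out. Choosing the probe set after the floor was also added after seeing the data.

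Without a floor 2 of these 6 calls were left: the differences were 1.70 and 3.72 for 1448226_at and 1.36 and 3.82 for 1416120_at. The sign of Rrm2 turned with the mean of its probe sets (0.763 and 0.956). Values that lay near 0 also changed sign. Pcna in B1a against Bs in Sle2c1 was 0.033 with quantile normalization, 0.0167 without the 4 arrays, and -0.0308 to 0.0125 with 1 array left out; between strains in B1a it was 0.00336 with quantile normalization. Rrm2 probe set 1416120_at between strains in B1a was -0.0175 with quantile normalization, -0.105 with median centring and -0.00417 to 0.0658 with 1 array left out. The difference between the strain effects was -0.0242 to 0.152 for 1434437_x_at with 1 array left out and -0.173 for 1448226_at with a floor at the 60th percentile.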
